A study of Mus musculus with 28 samples.

Results

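Chemokine receptors are G protein-coupled receptors that steer leukocytes along gradients of chemokines, and 9 of their genes were described here across the dendritic cells (DCs) of the mouse spleen: Ccr1, Ccr2, Ccr6, Ccr7, Ccr9, Xcr1, Cxcr3, Cxcr4 and Cx3cr1. They were found by symbol among the 24421 genes of the count tables, and all 9 passed the filter on low counts that left 13159 genes for testing. A receptor that is transcribed in 1 cell type alone passes that filter through that cell type.

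Bulk RNA-seq was made from DCs sorted by flow cytometry from spleens of untreated C57Bl/6 mice aged 6 to 12 weeks. All animals carried the Irf8fl/fl allele, in which the gene of the transcription factor IRF8 is flanked by loxP sites. Mice without a Cre gave 8 libraries each of cDC1 (CD24+), cDC2 (CD172a+) and plasmacytoid DCs (pDC), called cDC1 WT, cDC2 WT and pDC WT. The 4 libraries called pDC TG came from pDC of Irf8fl/fl Itgax-cre animals, where Itgax (CD11c) regulatory sequence drives the Cre, which is therefore not limited to pDC. Gene counts per library ran from 17299285 to 30787679. Levels are given as CPM, the count of a gene scaled to the size of its library by the TMM method of edgeR, and compare the same gene between groups. Fold changes and adjusted p-values come from edgeR's quasi-likelihood test, and a difference was called at an adjusted p under 0.05.

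In a DC, binding of a chemokine to its receptor acts mainly through inhibitory G proteins, which leads to directed movement, and arrestins and regulators of G protein signalling then end the signal. CCR7 leads DCs toward the T cell zones of lymphoid organs, where CCL19 and CCL21 are made. CCR9, whose ligand CCL25 is made in gut and thymus, is a receptor long used to define mature pDC, and XCR1 is the receptor that marks cDC1.

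The genotype was checked first. Irf8 was at 5379 to 6537 CPM in the pDC WT libraries and at 1166 to 1787 CPM in the pDC TG libraries, without overlap (log2 fold change -2.07, SE 0.13, adjusted p = 4.43e-13). Transcripts remained in pDC TG, and counts over the whole gene include parts outside a deletion. The summed level of 11 pDC identity genes was 10209 to 13199 CPM in pDC WT, 9578 to 12730 CPM in pDC TG, 73.3 to 88.7 CPM in cDC1 WT and 422 to 468 CPM in cDC2 WT. Of these 11 genes, 5 were called in pDC TG versus pDC WT, beside 14.8% of all tested genes. Klk1 fell from 960 to 217 CPM, Cd209d from 474 to 68.1 CPM, Lair1 from 1056 to 444 CPM and Bst2 from 1156 to 743 CPM. Cox6a2 rose from 376 to 1004 CPM. It lies on chromosome 7 (128205435 to 128206387) near Itgax (128129547 to 128150657) and Itgam (128062640 to 128118491). These neighbours also rose in pDC TG, and Itgax regulatory sequence drives the Cre. The part of the Cre construct in the counts of Cox6a2, Itgax and Itgam was not tested. Since the samples are bulk RNA of sorted cells, a change in the share of cells that transcribe a receptor and a change in the RNA per cell cannot be told apart.

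The positions are on GRCm38 (mm10), and each of the 9 genes is annotated as protein coding. Ccr9 (chromosome 9, 123678439 to 123784330), Xcr1 (chromosome 9, 123852315 to 123862029), Ccr1 (chromosome 9, 123962124 to 123968692) and Ccr2 (chromosome 9, 124101950 to 124113557) lie in a cluster of receptor genes. Cx3cr1 lies on the same chromosome (119901616 to 120069879), outside the cluster. Ccr6 is on chromosome 17 (8236043 to 8257141), Ccr7 on chromosome 11 (99144196 to 99155077), Cxcr3 on chromosome X (101731535 to 101734269) and Cxcr4 on chromosome 1 (128588199 to 128592293).

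Promoter sequence of RefSeq (GRCm38.p6) was found for 8 of the 9 receptors. The promoters of 3 are printed because these genes carry the main differences of pDC: Ccr9, the receptor gene with the highest CPM in pDC WT, Ccr1, the one with the largest rise in pDC TG, and Cxcr3, the only 1 of the 9 called lower there. Each sequence holds the 250 bases before the annotated start, on the strand of the gene, 5′ to 3′. Capitals mark the E-box CAGGTG and the motif AGGAAG on either strand. The E-box is a form of the sites that E proteins such as TCF4 recognise. AGGAAG, called the ETS core here, is a longer form of GGAA, which is shared by sites of ETS factors such as PU.1 and Spi-B.
Ccr9, chr9:123766961-123767210, plus strand: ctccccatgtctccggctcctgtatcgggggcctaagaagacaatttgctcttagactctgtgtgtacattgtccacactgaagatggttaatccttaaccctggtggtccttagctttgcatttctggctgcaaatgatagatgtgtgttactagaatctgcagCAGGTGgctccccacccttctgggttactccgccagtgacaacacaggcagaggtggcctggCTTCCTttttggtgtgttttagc
Ccr1, chr9:123968693-123968942, minus strand: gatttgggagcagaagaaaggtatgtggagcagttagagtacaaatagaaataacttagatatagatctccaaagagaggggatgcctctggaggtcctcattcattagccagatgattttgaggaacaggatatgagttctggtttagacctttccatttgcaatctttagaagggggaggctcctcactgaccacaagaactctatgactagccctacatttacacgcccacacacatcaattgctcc
Cxcr3, chrX:101734148-101734397, minus strand: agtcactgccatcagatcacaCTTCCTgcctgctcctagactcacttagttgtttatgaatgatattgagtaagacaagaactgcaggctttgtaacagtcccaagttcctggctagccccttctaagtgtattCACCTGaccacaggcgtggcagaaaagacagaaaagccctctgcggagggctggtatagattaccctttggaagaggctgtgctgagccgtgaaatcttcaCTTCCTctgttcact
The printed Ccr9 promoter holds an E-box 85 bases and an ETS core 23 bases before the start. In the Cxcr3 promoter an E-box lies 116 bases before the start, with ETS cores at 229 and 15 bases. The printed Ccr1 sequence holds neither of these motifs, but it holds the shorter GGAA on both strands. Both motifs were chosen after values of these data had been seen, and they are common: over windows of 300 bases (250 before to 50 after the start), 20.2% of 32851 promoters hold the E-box and 35.4% the ETS core on either strand. In those windows 2 of the 8 receptors held the E-box (Ccr9 and Cxcr3) and 4 the ETS core (Ccr6, Ccr9, Xcr1 and Cxcr3). None of the 8 held the interferon-stimulated response element core (GAAA, any 2 bases, GAAA; 3.44% of promoters), the ETS-IRF composite (GGAA, any 2 bases, GAAA; 2.71%) or the AP-1 site TGANTCA (7.81%), each searched on both strands. The motifs may overlap one another. A match describes letters only, and no match says only that the letters are not in this window.

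**Figure D1:**
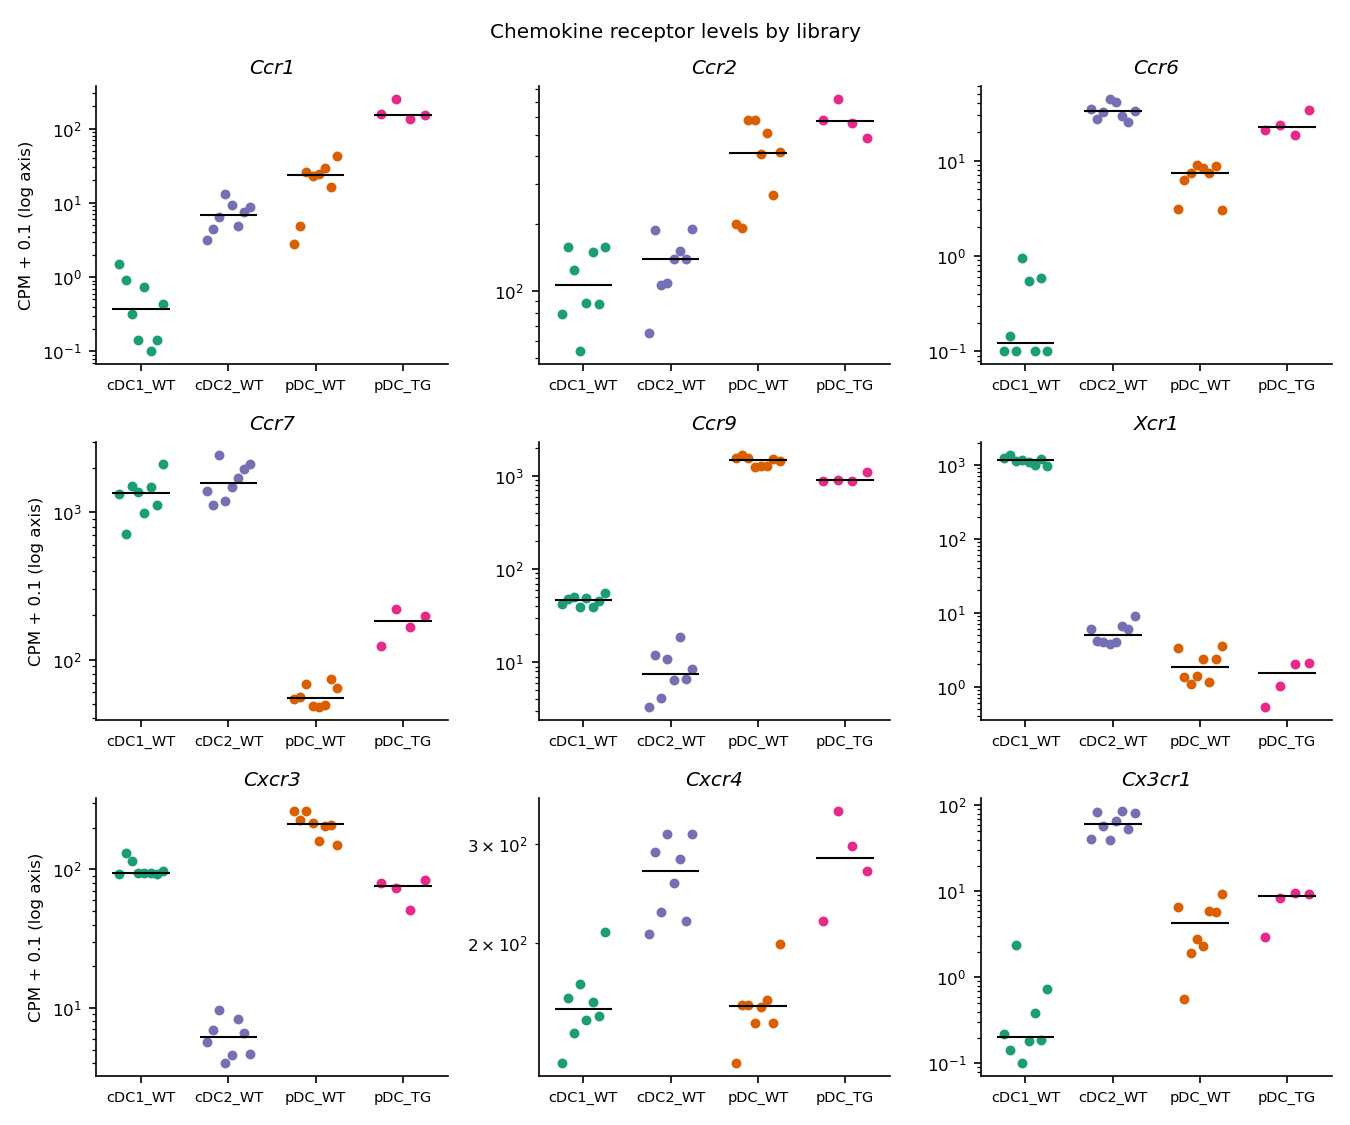
Level of each receptor gene in every library (points; CPM + 0.1 on a log axis), with the median of each group as a line, for 8 cDC1_WT, 8 cDC2_WT, 8 pDC_WT and 4 pDC_TG libraries. Xcr1 stands at 977 to 1381 CPM in cDC1_WT and below 10 CPM elsewhere, Ccr7 is high in both conventional groups, and Ccr1 is highest in the 4 pDC_TG libraries, at 135 to 253 CPM.

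Across the WT populations the receptors divided the 3 cell types. Xcr1 was the receptor gene of cDC1, Ccr6 and Cx3cr1 were highest in cDC2, Ccr9, Cxcr3, Ccr2 and Ccr1 were highest in pDC, and Ccr7 was high in both conventional types. Between cDC1 WT and pDC WT, 2 of the 9 were higher in cDC1, 6 lower and 1 not called, beside 60.9% of all tested genes called (30.6% higher and 30.3% lower). Between cDC2 WT and pDC WT, 5 were higher in cDC2 and 4 lower, beside 57.1% of genes called (28.8% higher and 28.3% lower). The libraries did not overlap for 7 receptors in the first of these comparisons and for 8 in the second, against 30.3% and 29.4% of all tested genes. Most genes differ between these cell types, so the counts say little by themselves and the sizes carry the description.

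Ccr7, the receptor that leads DCs to T cell zones, was at 718 to 2142 CPM in cDC1 WT (median 1356) and at 1127 to 2466 CPM in cDC2 WT (median 1594). In pDC WT its level was 47.3 to 73.8 CPM (median 54.8), below every conventional library. The level was 23.1-fold higher in cDC1 WT and 29.1-fold higher in cDC2 WT than in pDC WT (log2 fold changes 4.53, SE 0.20, and 4.86, SE 0.21; adjusted p = 1.14e-17 and 3.72e-18). Between cDC1 WT and cDC2 WT the libraries overlapped and the difference was not called (log2 fold change -0.33, interval -0.70 to 0.03, adjusted p = 0.127), although it passed under total-count scaling (-0.43, adjusted p = 0.0399) and without cDC1 WT replicate 8 (-0.47, adjusted p = 0.0257).

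In pDC TG, Ccr7 was at 125, 220, 167 and 199 CPM. All 4 libraries lay above the highest pDC WT library and below the lowest conventional library. Ccr7 rose 3.08-fold against pDC WT (log2 fold change 1.62, SE 0.21, adjusted p = 1.34e-06) and remained 7.51-fold lower than in cDC1 WT and 9.46-fold lower than in cDC2 WT. Zbtb46, a transcription factor gene of conventional DCs, stood at 215 CPM in cDC1 WT and 176 CPM in cDC2 WT. It was at 5.91 ± 4.37 CPM in pDC WT (SD, n = 8) and 4.32 ± 1.93 CPM in pDC TG (SD, n = 4) and was not called. Of the 6 listed genes shared by conventional DCs, Zbtb46 among them, 3 rose in pDC TG and 1 fell, beside 14.8% of all tested genes called. Flt3, a growth factor receptor gene, rose from 276 to 460 CPM, Itgax from 157 to 408 CPM and the MHC class II gene H2-Aa from 5054 to 6245 CPM. Dpp4 fell from 187 to 145 CPM. Itgax is the gene whose regulatory sequence drives the Cre, as given above. The summed level of these 6 genes was 10893 to 13831 CPM in pDC WT and 13700 to 15109 CPM in pDC TG, against 36187 to 44424 CPM over both conventional types. Their part in the Ccr7 rise was not tested.

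Ccr9, the receptor for CCL25, showed the opposite distribution to Ccr7. It was at 1257 to 1689 CPM in pDC WT (median 1483), at 39.2 to 55.9 CPM in cDC1 WT (median 46.7) and at 3.19 to 18.6 CPM in cDC2 WT (median 7.48). None of these 3 groups overlapped another. The level in pDC WT was 31.5-fold that of cDC1 WT (log2 fold change of cDC1 over pDC -4.98, SE 0.24, adjusted p = 4.46e-17) and 166-fold that of cDC2 WT (-7.37, SE 0.27, adjusted p = 8.89e-20). Within the conventional types, cDC1 WT held 5.27-fold more than cDC2 WT (2.40, SE 0.22, adjusted p = 2.31e-10).

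The 4 pDC TG libraries held 880, 902, 892 and 1096 CPM of Ccr9. Each was below the lowest pDC WT library and far above every conventional library. The log2 fold change against pDC WT was -0.62 (SE 0.25, interval -1.14 to -0.10) and was not called over all genes (adjusted p = 0.105). When pDC WT and pDC TG were fitted without the conventional groups, so that the estimate of spread came from pDC, the same difference of -0.62 had an SE of 0.10 and passed (adjusted p = 0.000286). Among the 22 alternatives to this comparison, that fit was the only 1 that called Ccr9.

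Xcr1, the receptor for XCL1, was at 977 to 1381 CPM in cDC1 WT (median 1166). All other groups were far lower: 3.69 to 8.99 CPM in cDC2 WT (median 4.97), 0.975 to 3.42 CPM in pDC WT (median 1.76), and 0.422, 0.908, 1.93 and 1.98 CPM in pDC TG. The cDC1 WT level was 587-fold that of pDC WT (log2 fold change 9.21, SE 0.31, adjusted p = 7.51e-21) and 215-fold that of cDC2 WT (7.74, SE 0.28, adjusted p = 2.63e-19). Low as it was, Xcr1 differed between cDC2 WT and pDC WT, 2.73-fold and without overlap (1.47, SE 0.25, adjusted p = 1.28e-05). Between pDC TG and pDC WT the libraries overlapped, and the difference was not called (-0.54, interval -1.25 to 0.18, adjusted p = 0.366).

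Cxcr3, the receptor for the interferon-induced chemokines CXCL9 and CXCL10, was at 150 to 266 CPM in pDC WT (median 213), 92.6 to 131 CPM in cDC1 WT (median 93.6) and 3.87 to 9.61 CPM in cDC2 WT (median 6.01). The 3 groups did not overlap. The pDC WT level was 2.098-fold that of cDC1 WT (log2 fold change of cDC1 over pDC -1.07, SE 0.15, adjusted p = 3.27e-07) and 34.3-fold that of cDC2 WT (-5.10, SE 0.18, adjusted p = 8.84e-21).

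In pDC TG, Cxcr3 was at 79.1, 73.4, 50.7 and 84.0 CPM, below every pDC WT library and below every cDC1 WT library. It fell to 0.338 of the pDC WT level (log2 fold change -1.57, SE 0.20, adjusted p = 6.28e-07) and was called lower in all 22 alternatives to that comparison. Against cDC1 WT the difference was smaller (-0.50, SE 0.19, adjusted p = 0.0252). That call was lost under total-count scaling (-0.20, adjusted p = 0.359), with WT replicates 5 to 8 alone (-0.39, adjusted p = 0.0829), without pDC TG replicate 2 (-0.49, adjusted p = 0.0533) and without pDC TG replicate 3 (-0.35, adjusted p = 0.146).

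Ccr1, a receptor for inflammatory chemokines such as CCL3 and CCL5, was lowest in cDC1 WT, at 0 to 1.40 CPM (median 0.277). The 1 cDC1 WT library without a count allows up to 0.109 CPM. In cDC2 WT it was at 3.08 to 12.9 CPM (median 6.83), and in pDC WT at 2.69 to 42.4 CPM (median 23.6). The pDC WT libraries were uneven: replicates 1 and 2 held 2.69 and 4.78 CPM and the other 6 held 16.2 to 42.4 CPM. Levels in pDC WT were 48.2-fold those of cDC1 WT (log2 fold change of cDC1 over pDC -5.57, SE 0.58, adjusted p = 1.44e-09). The comparison with cDC2 WT, whose libraries overlapped those of pDC WT, gave -1.58 for cDC2 over pDC (SE 0.44, adjusted p = 0.0034), -1.92 without pDC WT replicates 1 and 2 and -1.11 with WT replicates 1 to 4 alone, where it was not called (adjusted p = 0.188).

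In pDC TG, Ccr1 was at 155, 253, 135 and 150 CPM. The lowest of these is above the highest library of every WT group. Ccr1 rose 8.19-fold against pDC WT (log2 fold change 3.03, SE 0.50, adjusted p = 6.2e-05), the largest change among the 9 receptors in this comparison. It was called in all 22 alternatives, which ranged from 2.62 to 3.60, and was 2.68 without pDC WT replicates 1 and 2. Neutrophils and monocytes also transcribe Ccr1. Of 6 neutrophil markers, 5 were tested, and all 5 were called higher in pDC TG than in pDC WT, beside 7.72% of all tested genes. The summed level of the 6 was 0.195 to 2.43 CPM in pDC WT. It was 194 CPM in pDC TG replicate 4 and 0.230 to 4.59 CPM in the other 3 pDC TG libraries. Ccr1 in replicate 4, at 150 CPM, lay within the range of those 3. Of the 6 monocyte and macrophage markers, 5 were tested and Mertk alone was called, beside 14.8% of all tested genes. It had no count in pDC WT, and its mean of 0.624 CPM in pDC TG came from 1 library at 2.49 CPM. Csf1r was at 3.77 CPM in pDC WT and 5.03 CPM in pDC TG and Adgre1 at 0.559 and 0.357 CPM, and neither was called. The summed level of that list, most of it Ly6c2, was 1943 to 2598 CPM in pDC WT and 2269 to 3035 CPM in pDC TG. Among the WT groups Ly6c2 was a pDC transcript, with means of 2373 CPM in pDC WT, 6.13 CPM in cDC1 WT and 1.17 CPM in cDC2 WT. Its mean in pDC TG was 2708 CPM, so the sum is no measure of monocytes. The part of neutrophils or monocytes in the Ccr1 rise was not tested.

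Ccr2, the receptor for CCL2 that brings monocytes out of the bone marrow, was at 53.7 to 157 CPM in cDC1 WT (median 106), 65.0 to 189 CPM in cDC2 WT (median 139) and 191 to 583 CPM in pDC WT (median 415). Both conventional groups lay below every pDC WT library and overlapped each other. Levels in pDC WT were 3.53-fold those of cDC1 WT (log2 fold change of cDC1 over pDC -1.82, SE 0.25, adjusted p = 3.85e-07) and 2.91-fold those of cDC2 WT (-1.54, SE 0.25, adjusted p = 5.35e-06). The lowest pDC WT libraries were again replicates 1 and 2, at 200 and 191 CPM. The pDC TG libraries held 581, 726, 567 and 483 CPM and overlapped those of pDC WT. The difference was not called (0.57, interval -0.03 to 1.18, adjusted p = 0.222), and without pDC WT replicates 1 and 2 it was 0.35 (adjusted p = 0.495).

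Ccr6, the receptor for CCL20, was at 25.3 to 44.5 CPM in cDC2 WT (median 32.8) and at 2.97 to 8.81 CPM in pDC WT (median 7.37). In cDC1 WT 4 of the 8 libraries had no count, which allows up to 0.109 to 0.144 CPM in each, and the highest held 0.862 CPM. No WT group overlapped another. The cDC2 WT level was 145-fold that of cDC1 WT (log2 fold change of cDC1 over cDC2 -7.16, SE 0.55, adjusted p = 3.46e-12) and 5.09-fold that of pDC WT (2.34, SE 0.41, adjusted p = 1.4e-05). Without cDC1 WT replicate 4, the highest of that group, the first value was -7.86. In pDC TG it was at 21.0, 23.6, 18.5 and 33.9 CPM, above every pDC WT library, with 3 libraries below the cDC2 WT range and 1 within it. Ccr6 rose 3.69-fold against pDC WT (1.88, SE 0.46, adjusted p = 0.00444). The difference from cDC2 WT was not called (-0.46, interval -1.46 to 0.53, adjusted p = 0.461). B cells also transcribe Ccr6: their marker Ms4a1 was at 1.81 CPM in pDC WT and 1.91 CPM in pDC TG and was not called. From the 5 B cell markers, 4 were tested and Blk alone was called, beside 14.8% of all tested genes. Blk rose from 7.52 to 119 CPM, and with it the summed level of the list from 7.82 to 29.5 CPM in pDC WT to 117 to 140 CPM in pDC TG. Of 9 cDC2 identity genes, 3 rose in pDC TG and 2 fell (median log2 fold change -0.73), beside 14.8% of all tested genes called. Itgam rose from 0.401 to 31.9 CPM, Tmem176b from 38.4 to 242 CPM and Irf4 from 146 to 434 CPM. Itgam lies near Itgax, whose regulatory sequence drives the Cre, as given above. Clec10a fell from 251 to 35.2 CPM and Cd209a from 782 to 320 CPM, and the summed level of the 9 was 1363 to 2131 CPM in pDC WT and 1246 to 1515 CPM in pDC TG. The part of either list in the Ccr6 rise was not tested.

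Cx3cr1, the receptor for the membrane-bound chemokine fractalkine, was a cDC2 gene here as well. Its level was 40.05 to 86.9 CPM in cDC2 WT (median 61.5), 0.463 to 9.16 CPM in pDC WT (median 4.16) and 0 to 2.26 CPM in cDC1 WT (median 0.105), where 1 library had no count (up to 0.129 CPM). The cDC2 WT libraries lay above all others. Levels there were 145-fold those of cDC1 WT (log2 fold change of cDC1 over cDC2 -7.18, SE 0.66, adjusted p = 2.95e-10) and 14.8-fold those of pDC WT (3.89, SE 0.54, adjusted p = 4.57e-07). cDC1 WT was lower than pDC WT with overlapping libraries (-3.29, SE 0.61, adjusted p = 2.89e-05), a call lost with WT replicates 1 to 4 alone (-2.23, adjusted p = 0.0662). The cDC1 WT mean rests largely on replicate 3 at 2.26 CPM: without it the log2 fold change was -8.47 over cDC2 WT and -4.57 over pDC WT. The pDC TG libraries held 2.88, 8.25, 9.45 and 9.32 CPM, within or just above the pDC WT range, and the difference was not called (0.80, interval -0.42 to 2.03, adjusted p = 0.447).

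Cxcr4, the receptor for CXCL12 that holds many leukocytes in the bone marrow, varied least of the 9 between groups. It was at 122 to 210 CPM in cDC1 WT (median 153), 207 to 313 CPM in cDC2 WT (median 269) and 123 to 200 CPM in pDC WT (median 155). Between cDC1 WT and pDC WT no difference was called, and the interval bounds it to a log2 fold change of -0.21 to 0.25 (estimate 0.02, adjusted p = 0.893). Cxcr4 was 1.71-fold higher in cDC2 WT than in pDC WT, without overlap (0.77, SE 0.11, adjusted p = 4.92e-07), and 1.68-fold higher than in cDC1 WT, where the highest cDC1 WT library reached into the cDC2 WT range (-0.75 for cDC1 over cDC2, SE 0.11, adjusted p = 1.19e-06). The pDC TG libraries held 219, 343, 297 and 269 CPM, all above the highest pDC WT library. Cxcr4 rose 1.83-fold (0.87, SE 0.13, adjusted p = 1.12e-05), and its level in pDC TG did not differ detectably from that of cDC2 WT (0.10, interval -0.18 to 0.37, adjusted p = 0.575). Tested against a 1.5-fold change rather than none, the rise did not pass (adjusted p = 0.0958).

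**Figure D2:**
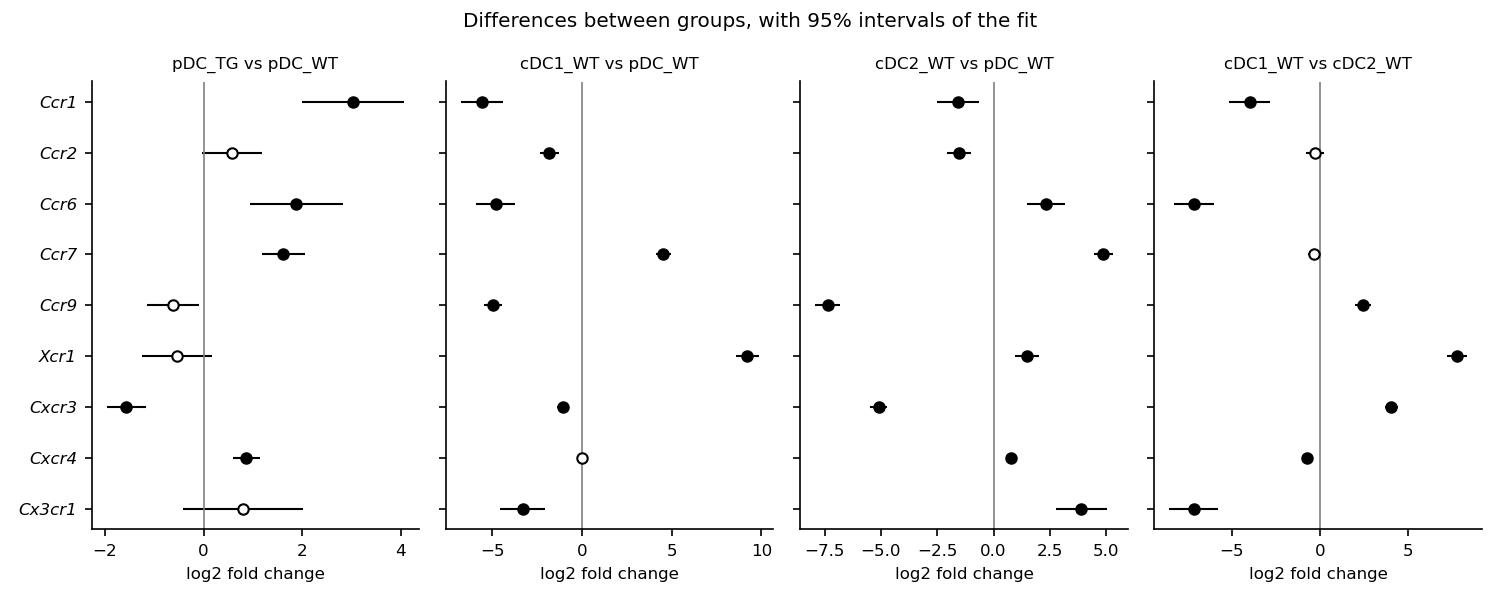
Log2 fold change of each receptor gene in 4 comparisons (points), with 95% intervals of the fit as bars; filled points passed the adjusted p threshold of 0.05. In pDC_TG against pDC_WT, Ccr1, Ccr6, Ccr7 and Cxcr4 lie above 0 and Cxcr3 below it, while the scale of the 3 comparisons between cell types reaches 9.21 for Xcr1.

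The comparison of pDC TG with pDC WT addresses what the Itgax-cre on the floxed Irf8 background changes in pDC. Of the 9 receptors, 4 rose (Ccr1, Ccr6, Ccr7 and Cxcr4), 1 fell (Cxcr3) and 4 were not called (Ccr2, Ccr9, Xcr1 and Cx3cr1). Over all tested genes 14.8% were called, 7.72% as higher and 7.04% as lower. The libraries did not overlap for 6 receptors, Ccr9 being the only 1 of these that was not called, beside 9.71% of all tested genes without overlap. The median log2 fold change of the 9 was 0.80, that of Cx3cr1, and the median of all tested genes was 0. The 4 rises ranged from 1.83-fold for Cxcr4 to 8.19-fold for Ccr1.

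Between cDC1 WT and cDC2 WT, 3 receptors were higher in cDC1 (Ccr9, Xcr1 and Cxcr3), 4 were lower (Ccr1, Ccr6, Cxcr4 and Cx3cr1) and 2 were not called (Ccr2 and Ccr7), with 46.2% of all tested genes called (22.8% higher and 23.4% lower). The libraries did not overlap for 6 of the 9, beside 21.2% of all genes. Ccr1 was 16.2-fold lower in cDC1 than in cDC2 (log2 fold change -3.99, SE 0.56) and Cxcr3 16.3-fold higher (4.03, SE 0.17). Ccr2 overlapped between them (-0.28, interval -0.78 to 0.23, adjusted p = 0.387). Set against cDC1 WT, pDC TG differed in all 9 receptors, 6 higher and 3 lower (53.6% of genes called, 27.1% higher and 26.6% lower), and none of the 9 overlapped, beside 36.5% of all genes. Set against cDC2 WT, 4 were higher in pDC TG, 3 lower and 2 not called (48.2% of genes called, 24.3% higher and 23.9% lower). There 7 of the 9 did not overlap, beside 33.2% of all genes. Ccr1 was 24.4-fold higher in pDC TG than in cDC2 WT (4.61, SE 0.53, adjusted p = 1.99e-08) and Ccr9 108-fold higher (6.75, SE 0.27, adjusted p = 2.52e-18). These comparisons share libraries with those above and are given as values of their own.

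To compare receptors with each other, counts were divided by gene length, and the 9 values of a library were expressed as shares of their sum. In this scale Ccr7 made up 60.1% ± 8.89 (SD, n = 8) of the receptor transcripts in cDC1 WT, followed by Xcr1 with 24.5%. In cDC2 WT, Ccr7 made up 79.9% ± 5.56 (SD, n = 8), followed by Cxcr4 with 14.5%. The pDC were more mixed. Ccr9 held 31.6% ± 3.59 in pDC WT (SD, n = 8), Cxcr3 27.3%, Cxcr4 19.1% and Ccr2 12.9%. In pDC TG the order was Cxcr4 with 28.8% ± 2.82 (SD, n = 4), Ccr9 with 17.2%, Ccr7 with 16.5%, Ccr2 with 16.2%, Ccr1 with 11.2% and Cxcr3 with 7.77%, so that the shares of Ccr9, Ccr7 and Ccr2 lay within their SDs of each other.

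The shares depend on the lengths taken. Annotated exonic bases sum to 10260 for Ccr9, 6760 for Ccr2 and 2320 for Ccr6, while the median lengths of their principal transcripts are 3622, 3257 and 1294 bases. With principal transcript lengths, Ccr9 made up 51.9% ± 5.49 of the receptor transcripts in pDC WT (SD, n = 8) and 32.3% ± 3.99 in pDC TG (SD, n = 4), ahead of Ccr2 with 22.3% and Cxcr4 with 19.2% in the latter. Which of Cxcr4 and Ccr9 led in pDC TG thus changed with the length used. In pDC WT Ccr9 led with both lengths. In the conventional types Ccr7 led with both lengths, at 58.7% and 77.1% with the second.

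**Figure D3:**
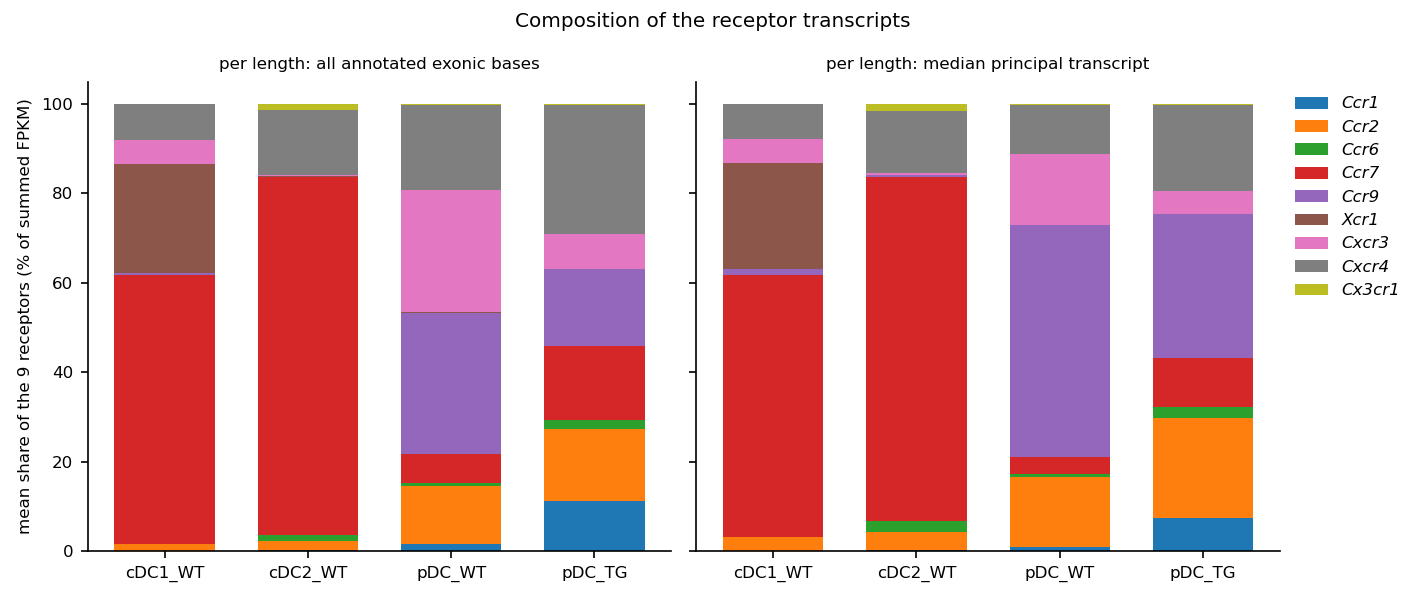
Mean share of each receptor in the summed length-normalized level of the 9 (percent of summed FPKM), per group, with the length taken as all annotated exonic bases (left) or the median principal transcript (right). Ccr7 fills most of both conventional bars, and the share of Ccr9 in pDC_WT is 31.6% on the left and 51.9% on the right.

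Along the cluster of chromosome 9, Ccr1 was the 1 called gene among the 7 shown for pDC TG. Ccr1 rose, and Ccr1l1, which lies 8.55 kb away and was at 1.04 CPM in pDC WT and 0.337 CPM in pDC TG, was not called. For Xcr1, Ccr2 and Ccr9 the differences given above were not called either. Cxcr6 (0.165 and 0.277 CPM) and Ccr3 (1.22 and 0.460 CPM) were low in both pDC groups and not called.

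**Figure D4:**
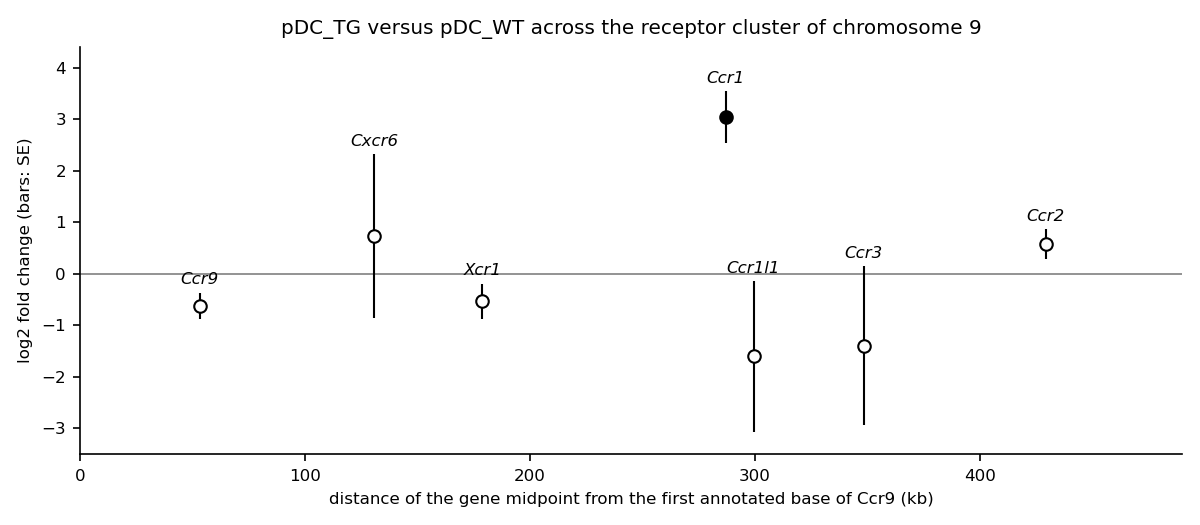
Log2 fold change between pDC_TG and pDC_WT (bars, SE) for 7 receptor genes of the chromosome 9 cluster, against the distance of each gene's midpoint from the first annotated base of Ccr9 (kb); filled points were called. Ccr1 at 3.03 is the only filled point among these 7.

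Among the other chemokine receptor genes reported here, Ccrl2, which encodes a receptor that presents chemerin without signalling itself, rose from 0.587 to 5.47 CPM in pDC WT to 42.1, 53.5, 47.4 and 48.3 CPM in pDC TG (log2 fold change 3.89, SE 0.29, adjusted p = 6.45e-11). It was higher still in cDC1 WT, at 75.2 ± 20.6 CPM, and in cDC2 WT, at 774 ± 158 CPM (SD, n = 8 each). Ccr10 was at 0.789 and 3.27 CPM and not called (adjusted p = 0.188). Of 4 atypical receptors, 2 could be tested and neither was called.

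Among 19 ligands of the 9 receptors, 15 were tested, 3 rose, 1 fell and 11 were not called. Over all tested genes, 14.8% were called, 7.72% as higher and 7.04% as lower. Xcl1, the ligand of XCR1, rose from 2.35 to 56.4 CPM (log2 fold change 4.59, SE 0.64, adjusted p = 1.66e-05). Ccl3, a ligand of CCR1, rose from 60.5 to 163 CPM (1.43, SE 0.26, adjusted p = 0.000188) and Ccl5 from 0.183 to 0.896 CPM (2.22, SE 0.49). Ccl6 fell from 9.47 to 4.28 CPM (-1.14, SE 0.34, adjusted p = 0.0202). Ccl4, a chemokine closely related to Ccl3, was at 2059 CPM in pDC WT and 1979 CPM in pDC TG and was not called (-0.06, adjusted p = 0.952). The ligands of CCR7, CCR6 and CCR9 were at or near 0: Ccl21a and Ccl20 had no count in either pDC group, Ccl19 was at 0.193 CPM in pDC WT and 0 in pDC TG, and Ccl25 was at 1.08 and 1.57 CPM.

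Downstream of the receptors, 21 genes of G proteins and effectors were tested. Of these, 4 rose, 2 fell and 15 were not called, with a median log2 fold change of 0.03, beside 14.8% of all tested genes called. Plcb1, a phospholipase C beta gene, was at 0 to 0.154 CPM in pDC WT and at 9.33, 14.4, 21.4 and 17.5 CPM in pDC TG (8.40, SE 0.84, adjusted p = 1.04e-08), and Plcb4 rose from 4.77 to 34.8 CPM (2.86, SE 0.32). Plcb2 fell from 65.5 to 42.6 CPM (-0.62, SE 0.15, adjusted p = 0.00503). The GTPase gene Rac1 rose by little, from 446 to 536 CPM (0.27, SE 0.07, adjusted p = 0.00996). Gnai2, the abundant inhibitory G protein gene, was at 793 and 838 CPM and was not called (0.08, adjusted p = 0.546).

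Genes that end receptor signals split as well: of 14 tested, 4 rose, 2 fell and 8 were not called (median 0.21). The share called over all tested genes was 14.8%. Rgs10, a regulator of G protein signalling, fell from 107 to 23.8 CPM (log2 fold change -2.17, SE 0.19, adjusted p = 5.93e-10) and Rgs1 from 84.3 to 51.9 CPM (-0.70, SE 0.18). Rgs2 rose from 121 to 185 CPM (0.61, SE 0.13, adjusted p = 0.00136), and the arrestin gene Arrb2 from 41.8 to 63.2 CPM (0.60, SE 0.11, adjusted p = 0.000158). Of 12 other guidance receptors, 10 were tested, 2 rose and 2 fell, beside the same 14.8% of all tested genes called. Gpr183, the oxysterol receptor EBI2, rose from 280 to 633 CPM (1.18, SE 0.26, adjusted p = 0.00201). The sphingosine-1-phosphate receptor gene S1pr4 fell from 39.8 to 21.3 CPM (-0.90, SE 0.27, adjusted p = 0.0194) and P2ry14, a receptor for UDP-sugars, from 331 to 212 CPM (-0.65, SE 0.16, adjusted p = 0.00602). S1pr3 had no count in any pDC WT library and a mean of 0.662 CPM in pDC TG (adjusted p = 0.0229). Only 2 of the 4 pDC TG libraries held counts, and the mean rests largely on 1 library at 2.57 CPM (median 0.038).

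**Figure D5:**
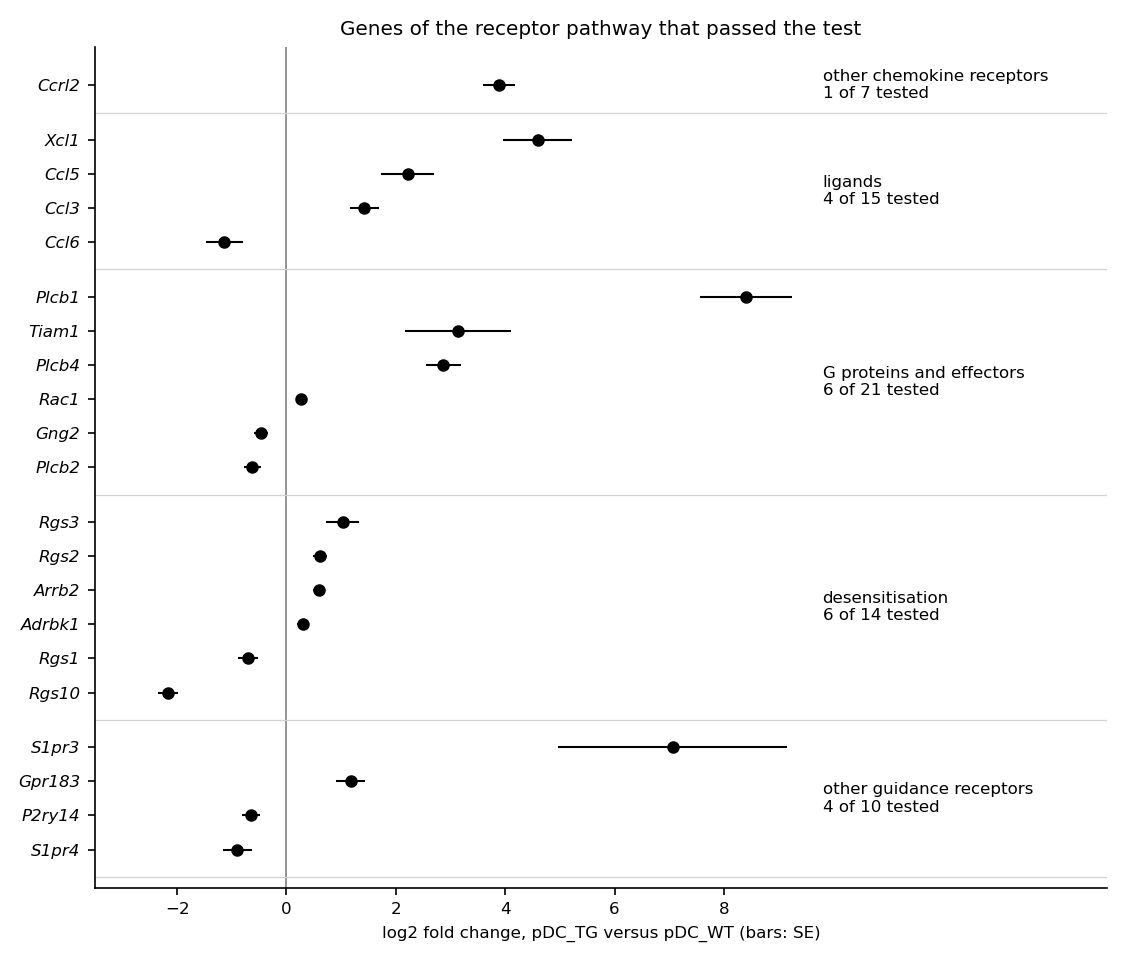
Log2 fold change between pDC_TG and pDC_WT (bars, SE) of the genes that passed the test in 5 lists around the receptors, with the number shown of those tested and reported at the right. Genes lie on both sides of 0 in each list but the first, from Rgs10 at -2.17 to Plcb1 at 8.40. S1pr3 had no count in pDC_WT and counts in 2 of 4 pDC_TG libraries, so its fitted value rests on the prior count of the fit.

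The genes whose pattern over the 28 libraries was most like that of each receptor were ranked by Pearson's r of log2(CPM + 1) among 9117 genes with a mean of at least 10 CPM. Ccr7 was closest to Fscn1 (r = 0.99), the gene of the actin-bundling protein fascin, and to Marcksl1 (0.98). Xcr1 was closest to Cst3 (0.99), the cystatin C gene, and to Mab21l3 (0.99). Cxcr3 was closest to Nek6 (0.98), and the next was Irf8 itself (0.98). For Ccr9 the nearest were Tmed3 (0.98) and Pgls (0.98), for Ccr6 Fam107b (0.98) and Lysmd2 (0.96), and for Cx3cr1 Tctex1d2 (0.96) and Npl (0.95). Ccr1 was closest to Ubl3 (0.93) and Prcp (0.93), Ccr2 to Atg5 (0.92) and Tmem9 (0.91), and Cxcr4 to Stard5 (0.90) and Abhd17c (0.88). The libraries form 4 groups, so these values follow group means: after group means were removed, r of the same 18 pairs ran from 0.04 to 0.67, and that of Cxcr3 with Irf8 was 0.21.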

How the data were processed

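RNA from dendritic cells sorted from spleen was amplified with SMART-Seq v4 and sequenced as single 75-base reads, per the labels' protocols. The protocol keeps no strand and no molecular identifiers, so PCR copies cannot be told from molecules, and limits for libraries without a count (3 counts) cover counting error only. The submitters' processing notes name TopHat2 2.1.0, SAMtools 0.1.18, Trimmomatic 0.35, FastQC 0.11.4 and the build mm10, and which tool and annotation gave the counts is not given in the sources used here. What the authors deposited are raw counts, whole numbers of reads for each of 24421 gene symbols, and 5 summary lines. Those lines stayed out of library sizes; reads without a feature made up 8.23% to 18.7% and ambiguous reads 1.04% to 1.57%.

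The tests used edgeR 4.0.16 (R 4.3.3) with TMM scaling and the filterByExpr filter by group, which asks for a minimum count of 10 and a minimum total of 15. All 28 libraries were fitted together (robust quasi-likelihood, 24 residual degrees of freedom), with two-sided tests and Benjamini-Hochberg adjustment over 13159 genes. Intervals are 95% intervals of the fit. Alternatives were DESeq2 1.42.0 size factors, total counts alone, no filter, the DESeq2 Wald test, a test against a 1.5-fold change, the 2 groups compared alone, WT replicates 1 to 4 or 5 to 8 (the series design counts 4 replicates a sample), a replicate block and each library left out. Leaving out pDC WT replicates 1 and 2 was added after the data were seen. No 2 libraries of a group agreed within sampling noise (lowest chi-square per degree of freedom 33.6 over 90 pairs). The labels number the mice within each group, and it is not stated whether same-numbered libraries of different groups share a mouse. Same-numbered WT libraries did deviate together, though weakly (values below). They also shared their sex by the transcripts Xist and Ddx3y (below), and the part of sex in these deviations was not tested. The main test fitted no pairs and no term for sex. The replicate block was the alternative that fitted pairs, and its numbers also separate the sexes. The flow cell of each library is not known here, and no term for it was fitted. Positions and lengths came from GENCODE M21 (GRCm38), and exonic bases of the 9 receptors overlapped other listed genes in 1 case only, Ccr9 with 0.214%.

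The receptors, gene lists, comparisons and alternatives were chosen with earlier results of these data known. Named from each list were up to 4 called genes with the smallest adjusted p in pDC TG versus pDC WT and neighbours of a receptor; Gnai2, Ccl4, Ccr10, Bst2, Cd209a and the uncalled ligands and markers were named after their values were seen. Some genes on these lists are not reported here.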

Additional observations from a re-analysis of the deposited data

Results flagged for a closer look

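In 36 sets of 1 receptor gene in 1 group, the highest and lowest library were compared with the others by the gap to the nearest library as a share of the range. The gap passed Dixon's critical value in 4 sets, and chance passes it in about 1 in 20. Ccr1 in pDC TG replicate 2 was at 253 CPM, and the next library held 155 CPM. Without that replicate the log2 fold change of Ccr1 against pDC WT was 2.80. Ccr9 in pDC TG replicate 4 was at 1096 CPM, and the next library held 902 CPM. Cxcr4 in pDC WT replicate 8 was at 199.7 CPM against 158 CPM in the next library, and remained below every pDC TG library. Cx3cr1 in cDC1 WT replicate 3 was at 2.26 CPM, with 0.624 CPM in the next library.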

How the results depend on the processing

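Over the receptors in 6 comparisons, 501 of 513 values under other settings and 750 of 756 with 1 library left out kept their direction and side of the threshold. Direction turned only for uncalled differences of Cxcr4: cDC1 WT versus pDC WT gave -0.23 with total counts alone, -0.0052 with the 2 groups alone, -0.0202 without pDC WT replicates 1 and 2 and -0.0461 to 0.0813 with each library left out (below 0 without cDC1 WT replicate 8, at -0.0461, and without pDC WT replicate 1, at -0.0217), and pDC TG versus cDC2 WT gave -0.0083 without pDC TG replicate 2 and at most 0.202 with each library left out. The causes were not tested. Besides the changes given beside the results, Cxcr4 in cDC1 WT versus cDC2 WT (adjusted p = 0.0876) and Cxcr3 in pDC TG versus cDC1 WT (adjusted p = 0.700) lost their calls against a 1.5-fold change. Tested against that change, called genes numbered 531 rather than 1943 in pDC TG versus pDC WT, 4777 rather than 8012 in cDC1 WT versus pDC WT, 4390 rather than 7515 in cDC2 WT versus pDC WT, 2746 rather than 6085 in cDC1 WT versus cDC2 WT, 4359 rather than 7055 in pDC TG versus cDC1 WT and 3612 rather than 6341 in pDC TG versus cDC2 WT. With WT replicates 1 to 4 alone, a fit of fewer samples, cDC1 WT versus cDC2 WT called 3921 genes. With each library left out, the same comparisons in that order called 1521 to 1952, 7784 to 7896, 7262 to 7395, 5822 to 6046, 6532 to 7007 and 5708 to 6225 genes, and 5 to 5, 8 to 8, 9 to 9, 7 to 8, 8 to 9 and 7 to 7 of the 9 receptors.

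Total counts alone moved the median log2 fold change of all genes to -0.28 in cDC1 WT versus pDC WT (36.6% of calls higher, 50.3% with TMM), -0.16 in cDC2 WT versus pDC WT (40.6%, 50.4%), -0.11 in cDC1 WT versus cDC2 WT, 0.30 in pDC TG versus cDC1 WT (66.5%, 50.5%) and 0.21 in pDC TG versus cDC2 WT (63.2%, 50.5%). In pDC TG versus pDC WT that median was 0.035 (59.3% of calls higher, 52.3% with TMM). Same-numbered libraries correlated weakly in their deviations from group means. For cDC1 WT with cDC2 WT, r was 0.03 to 0.11, and 8 of 8 correlated best with their own number. It was 0.036 to 0.086 for cDC1 WT with pDC WT (7 of 8) and 0.025 to 0.090 for cDC2 WT with pDC WT (7 of 8). For pDC TG, r was -0.03 to 0.04 with pDC WT (0 of 4), 0.0039 to 0.063 with cDC1 WT (1 of 4) and -0.016 to 0.033 with cDC2 WT (0 of 4). With the replicate number as a block, pDC TG versus pDC WT called 2042 genes and 5 of the 9 receptors, cDC1 WT versus pDC WT 8063, cDC2 WT versus pDC WT 7637, cDC1 WT versus cDC2 WT 6195, pDC TG versus cDC1 WT 6846 and pDC TG versus cDC2 WT 6253 genes, and the block changed no call of a receptor.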

Other observations

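Xist and Ddx3y, transcripts of female and male mice, split the libraries by odd and even replicate number in every group, so the groups were balanced for sex. In cDC1 WT, Cxcr4 averaged 139 CPM in the odd (Xist-high) and 174 CPM in the even (Ddx3y-high) libraries, without overlap, and in cDC2 WT 227 and 299 CPM, again without overlap. In pDC WT the means were 144 and 164 CPM and in pDC TG 258 and 306 CPM, with overlapping libraries in both. Ccr9 in cDC2 WT averaged 5.03 CPM in the odd and 12.4 CPM in the even libraries, without overlap, whereas in pDC WT the means were 1482 and 1417 CPM and overlapped. In pDC TG, with 2 libraries of each kind, Ccr6 (19.7 and 28.7 CPM), Ccr7 (146 and 210 CPM) and Ccr9 (886 and 999 CPM) did not overlap. These splits were chosen after the values were seen and were not tested.

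Cd5, listed here among T cell markers, was at 4.58 CPM in pDC WT and 21.3 CPM in pDC TG (log2 fold change 2.21, adjusted p = 3.6e-05). From the 5 markers of that list, 3 were tested and Cd5 alone was called, beside 14.8% of all tested genes. Cd3e, which defines T cells, was at 0.359 and 0.496 CPM and not called.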
